A study of Mus musculus with 8 samples.

Results

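The 9 genes Tmprss13, Gcnt1, Elovl7, Kcnj14, Atcayos, Dixdc1, Dusp18, Angptl7 and Fv1 were picked by symbol because their mean levels in both dystrophic groups lay far from wild type in the left ventricle. They are 9 of the 14578 genes in the deposited table, and 9 of the 13783 whose value reached 1 or more in 2 or more libraries. No numerical threshold came with the choice, so their distance from wild type is described here and not tested. RNA of the left ventricle was sequenced from mice of 6 months in 8 libraries, of which 2 were WT, 3 were mdx and 3 were mdx sln+/-. The groups share a C57 genetic background by the labels. The mdx mice lack dystrophin, and mdx sln+/- mice carry in addition a heterozygous loss of Sln, which encodes the calcium pump inhibitor sarcolipin. The labels used here do not name a substrain, littermates or a shared colony, so that the mdx lineage and the dystrophin deficiency cannot be told apart in any comparison with WT. They also do not say that the libraries of a group come from separate animals, so the p-values given measure the spread between these libraries.

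Dystrophin ties the cytoskeleton of heart and skeletal muscle cells to the surrounding matrix, and mdx hearts are known to become fibrotic with age. The 9 genes do not form a pathway. Tmprss13 encodes a serine protease anchored in the membrane, known from epithelia, Gcnt1 an enzyme that branches O-linked glycans, Elovl7 an enzyme that lengthens fatty acids, and Kcnj14 an inward rectifier potassium channel. Dixdc1 encodes a DIX domain protein that acts in Wnt signalling, Dusp18 a dual specificity phosphatase, and Angptl7 a secreted angiopoietin-like protein. Atcayos is a noncoding RNA transcribed opposite to Atcay and overlapping Nmrk2, which encodes a kinase of NAD synthesis. Fv1 derives from an endogenous retroviral gag gene, restricts murine leukaemia viruses, and is known for alleles that differ between inbred mouse strains.

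Levels are given as log2(value + 1) of the deposited abundance, summed over the transcripts of a gene. A difference is the mean of a group minus the mean of WT on that scale, which understates the change of low genes. Dmd, the gene disrupted in mdx, read 6.60 and 6.98 in WT, 4.30, 4.32 and 4.22 in mdx and 4.09, 4.10 and 4.25 in mdx sln+/-, lower in every dystrophic library, as the labels have it. Sln itself was not analysed here. Eif2s3y, a gene of the Y chromosome, ran from 0.92 in WT 2 and 1.31 in mdx sln+/- 3 to 6.11 in WT 1, so the groups are not matched on it. All 8 ventricular cardiomyocyte markers listed were in the table, with a summed linear value of 43718 to 45892 in WT, 47738 to 51605 in mdx and 47957 to 51063 in mdx sln+/-. None of the 3 adipocyte and none of the 4 epithelial markers was found in the table used. The 5 macrophage markers summed to 79.5 to 80.4 in WT, 79.4 to 97.9 in mdx and 85.3 to 107 in mdx sln+/-, and 3 of the 5 were called higher in mdx. Of the lymphocyte markers 1 of 5 was in the table used, Ighm, at a linear value of 3.14 to 3.18 in WT, 4.36 to 7.52 in mdx and 6.49 to 6.63 in mdx sln+/-, called higher in mdx. The 3 endothelial markers summed to 332 to 418, 419 to 485 and 435 to 477, with none called in mdx. The part of these cells in the levels of the 9 genes was not tested. In bulk tissue, fewer cells of a type and less RNA per cell cannot be told apart.

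Tmprss13 had the largest mean difference of all genes tested. It lies on chromosome 9 at 45319100 to 45347581 on the plus strand (GRCm38/mm10, GENCODE M21). Its level was 1.03 and 1.12 in WT, 5.05, 4.91 and 4.71 in mdx, and 4.61, 4.56 and 4.58 in mdx sln+/-. The lowest dystrophic library stood 3.44 above the higher WT library, and the mean difference was 3.81 in mdx (14.1-fold) and 3.51 in mdx sln+/- (11.4-fold). It shares 56 exon bases with 1700003G13Rik on the other strand, a gene outside the table used, and whether counting used strand is not given in the sources used here.

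Gcnt1, the glycan-branching enzyme of leukocyte selectin ligands, was high in all dystrophic libraries. It lies on chromosome 19 at 17326141 to 17372844 on the minus strand. It read 1.33 and 1.41 in WT, 4.41, 4.12 and 4.45 in mdx, and 4.48, 4.91 and 4.72 in mdx sln+/-. The groups did not overlap, with 2.72 between the closest libraries, and the difference was 2.96 in mdx (7.77-fold) and 3.33 in mdx sln+/- (10.1-fold). Of the macrophage markers 3 of 5 were called higher in mdx, as was Ighm, while the macrophage sums of mdx and WT overlapped. Their part in the level of Gcnt1 was not tested. Its transcripts Gcnt1-203 and Gcnt1-201, which start from different places, differed from WT alike. The former read 0.73 and 1.07 in WT, 3.82, 3.61 and 3.85 in mdx and 3.80, 4.20 and 4.17 in mdx sln+/-. The latter read 0.90 and 0.63 in WT, 3.04, 2.63 and 3.08 in mdx and 3.24, 3.65 and 3.22 in mdx sln+/-. The RefSeq windows around these starts, both on the minus strand of GRCm38.p6, are printed because both transcripts differed; capitals mark a match to the M-CAT box, CATTCC on either strand, which 14.7% of the 32851 mouse promoters in the table hold.
Gcnt1-203, chr19:17356618-17356917: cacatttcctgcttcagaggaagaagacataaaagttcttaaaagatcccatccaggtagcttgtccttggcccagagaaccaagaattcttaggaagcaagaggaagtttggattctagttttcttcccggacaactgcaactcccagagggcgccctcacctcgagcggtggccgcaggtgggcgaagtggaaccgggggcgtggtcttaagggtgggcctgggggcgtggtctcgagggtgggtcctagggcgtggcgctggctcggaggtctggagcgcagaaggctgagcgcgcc
Gcnt1-201, chr19:17339456-17339755: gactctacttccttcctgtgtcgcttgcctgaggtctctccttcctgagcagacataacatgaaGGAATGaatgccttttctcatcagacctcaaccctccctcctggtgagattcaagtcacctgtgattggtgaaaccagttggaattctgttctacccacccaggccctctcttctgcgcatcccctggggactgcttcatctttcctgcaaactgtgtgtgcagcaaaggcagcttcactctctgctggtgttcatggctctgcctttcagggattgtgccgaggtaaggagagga
The first window held none of the motifs searched. The RefSeq start of Gcnt1-201 lies 63 bases from the start of the deposited transcript.

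Elovl7, which lengthens saturated and monounsaturated long-chain fatty acids in the endoplasmic reticulum, lay on chromosome 13 at 108214404 to 108285683, plus strand. It read 0.54 and 0.82 in WT, 2.23, 2.40 and 2.48 in mdx, and 2.54, 2.60 and 2.63 in mdx sln+/-. No library of WT overlapped the dystrophic ones, and the difference was 1.69 in mdx (3.23-fold) and 1.92 in mdx sln+/- (3.78-fold). Both WT libraries were under a linear value of 1, so the gene passed the filter through the dystrophic libraries. Its coding transcript Elovl7-201 read 0.24 and 0.37 in WT, 2.18, 2.36 and 2.35 in mdx and 2.22, 2.11 and 2.20 in mdx sln+/-. Elovl7-202, annotated for nonsense-mediated decay, read 0.34 and 0.55 in WT, 0.21, 0.18 and 0.56 in mdx and 1.12, 1.46 and 1.39 in mdx sln+/-, so that mdx overlapped WT and mdx sln+/- stood above both. The promoter that both transcripts share holds 3 GC boxes (GGGCGG on either strand, in 35.7% of promoters), in capitals; RefSeq, GRCm38.p6, plus strand.
Elovl7, chr13:108214154-108214453: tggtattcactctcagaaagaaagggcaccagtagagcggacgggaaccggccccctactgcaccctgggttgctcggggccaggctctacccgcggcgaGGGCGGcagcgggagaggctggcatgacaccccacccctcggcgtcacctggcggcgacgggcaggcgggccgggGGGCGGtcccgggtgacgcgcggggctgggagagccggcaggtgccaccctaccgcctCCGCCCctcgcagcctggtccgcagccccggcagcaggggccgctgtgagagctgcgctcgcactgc
The boxes begin 150, 75 and 17 bases before the start.

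Kcnj14, the inward rectifier channel on chromosome 7 at 45816460 to 45824782, minus strand, was uneven within WT. It read 5.78 in WT 1 and 0.38 in WT 2, 7.64, 6.43 and 6.12 in mdx, and 5.50, 6.37 and 6.34 in mdx sln+/-. WT 1 lay inside the dystrophic range, above mdx sln+/- 1, and WT 2 was far below every other library. The mean difference of 3.65 in mdx and 2.99 in mdx sln+/- became 0.95 and 0.28 without WT 2, and 6.35 and 5.69 without WT 1. The WT range of 5.41 was the widest of all genes tested, against a median WT range of 0.143.

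**Figure D1:**
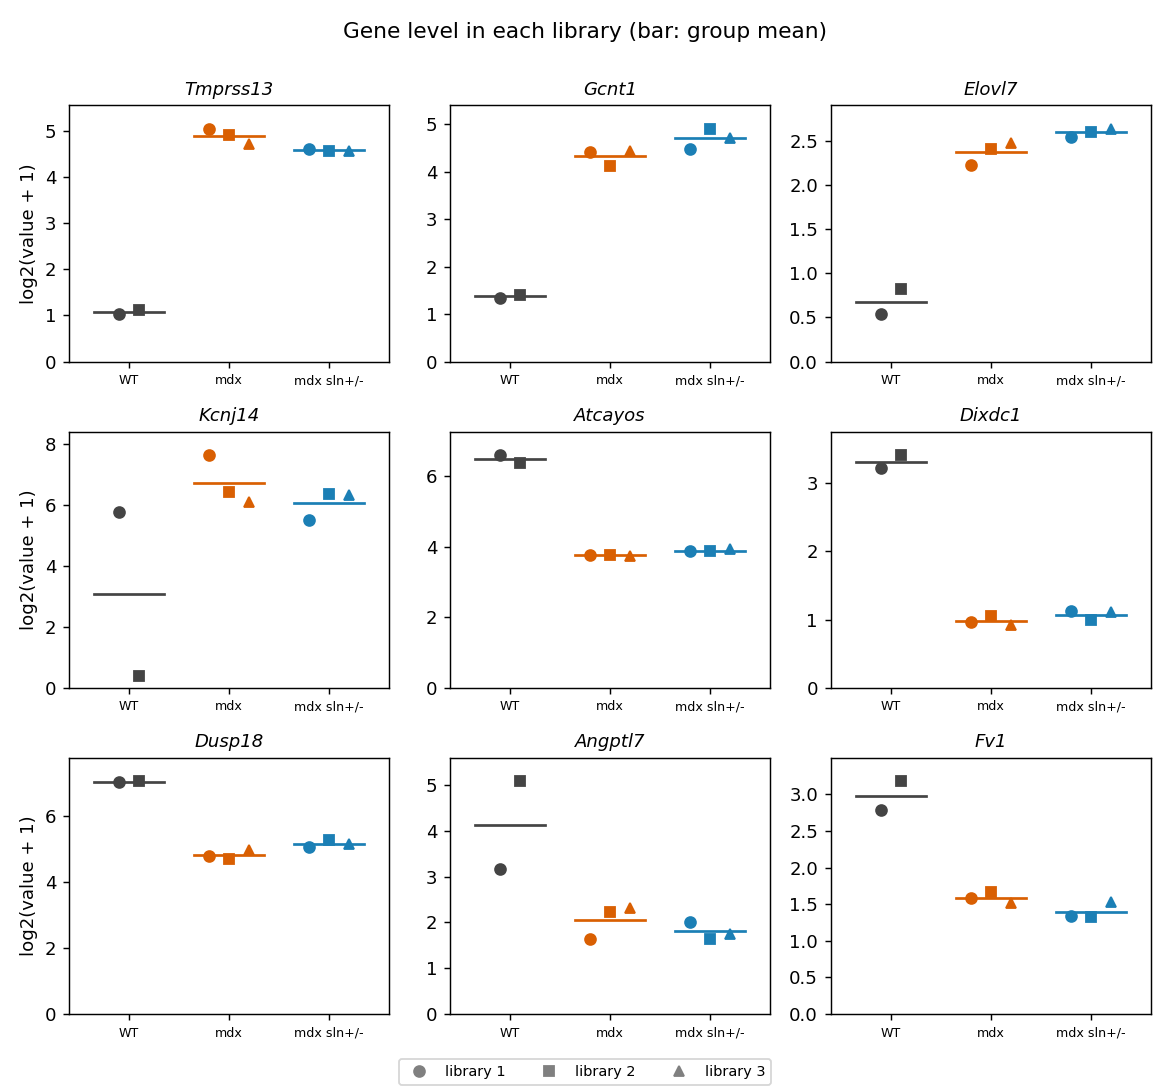
Level of each of the 9 genes as log2(value + 1), 1 panel per gene with its own axis; each point is a library (circle 1, square 2, triangle 3) and bars are group means. Tmprss13, Gcnt1 and Elovl7 are higher and Atcayos, Dixdc1, Dusp18, Angptl7 and Fv1 lower in every mdx and mdx sln+/- library than in WT, while WT 1 of Kcnj14 lies among the dystrophic libraries.

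Atcayos, the antisense RNA, showed the widest gap among the genes lower in the dystrophic groups. It lies on chromosome 10 at 81194609 to 81210877 on the plus strand. Its level was 6.60 and 6.38 in WT, 3.76, 3.77 and 3.73 in mdx, and 3.86, 3.87 and 3.93 in mdx sln+/-. The 6 dystrophic libraries lay within 0.20 of one another and 2.46 below the lower WT library, with a difference of -2.74 in mdx and -2.60 in mdx sln+/-. The difference sat in 2 of its 3 transcripts. Atcayos-202 read 5.56 and 5.28 in WT, 2.59, 2.51 and 2.51 in mdx and 2.73, 2.75 and 2.69 in mdx sln+/-, and Atcayos-203 read 5.47 and 5.33 in WT, 2.15, 2.11 and 1.75 in mdx and 2.12, 2.04 and 2.27 in mdx sln+/-. Atcayos-201 stayed closer, at 2.90 and 2.69 in WT, 2.35, 2.48 and 2.64 in mdx and 2.48, 2.53 and 2.56 in mdx sln+/-, a difference of -0.30 and -0.27. In the annotation, Atcayos-201 shares 270 exon bases with Nmrk2, and Atcayos-202 and Atcayos-203 share none with it but 56 and 432 with Atcay, which is outside the table used. Nmrk2 itself was not called against WT, at a difference of 0.42 in mdx (limma with Benjamini-Hochberg adjustment, adjusted p = 0.446) and -0.27 in mdx sln+/- (adjusted p = 0.614). The promoter is printed for the start at the 5′ end of Atcayos-203 and carries a TATA box (TATAAA, in 13.6% of promoters) and a GC box, in capitals; RefSeq, GRCm38.p6, plus strand.
Atcayos, chr10:81194441-81194740: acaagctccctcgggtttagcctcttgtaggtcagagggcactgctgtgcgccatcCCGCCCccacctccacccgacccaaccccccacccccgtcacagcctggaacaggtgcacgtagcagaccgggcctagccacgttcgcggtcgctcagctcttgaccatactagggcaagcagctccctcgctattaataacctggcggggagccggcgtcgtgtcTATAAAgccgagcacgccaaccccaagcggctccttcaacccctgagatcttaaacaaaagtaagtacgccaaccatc
The TATA box begins 28 bases and the GC box 194 bases before the start.

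Dixdc1, the Wnt pathway gene on chromosome 9 at 50662752 to 50739517, minus strand, read 3.22 and 3.41 in WT, 0.97, 1.05 and 0.91 in mdx, and 1.12, 0.99 and 1.11 in mdx sln+/-. Both WT libraries were high and the 6 others lay 2.10 or more below them, with a difference of -2.34 and -2.24. The transcripts Dixdc1-201 and Dixdc1-203, which begin at 1 promoter, differed together. Dixdc1-201 read 2.52 and 2.76 in WT, 0.39, 0.65 and 0.52 in mdx and 0.80, 0.59 and 0.77 in mdx sln+/-, and Dixdc1-203 read 2.20 and 2.28 in WT, 0.71, 0.59 and 0.54 in mdx and 0.52, 0.56 and 0.53 in mdx sln+/-. Their shared RefSeq window, on the minus strand of GRCm38.p6, is printed for this joint difference and matches none of the motifs searched.
Dixdc1, chr9:50727935-50728234: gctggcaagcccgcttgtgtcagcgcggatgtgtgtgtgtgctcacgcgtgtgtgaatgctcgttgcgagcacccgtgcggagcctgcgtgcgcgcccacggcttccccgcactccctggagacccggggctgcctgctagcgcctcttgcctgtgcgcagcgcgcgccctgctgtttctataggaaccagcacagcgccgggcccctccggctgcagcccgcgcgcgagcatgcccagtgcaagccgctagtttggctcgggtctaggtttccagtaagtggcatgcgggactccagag
Its RefSeq start, 50727984, lies 9 bases from the start of Dixdc1-201 and farther from that of Dixdc1-203, at 50728067.

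Besides those named, the motifs searched on both strands were the E-box CACGTG, in 7.15% of promoters, the interferon-type element (TTTC, any 2 bases, TTTC), in 3.44%, and the MEF2-type element (CTA, any 4 bases, TAG), in 3.69%. A match describes letters in these windows and no binding. From the start on, the bases of the window run along a deposited transcript to the window's end in 6 of 8 windows. These are all 50 bases except for Angptl7, where the match begins 2 bases in and holds 48. In the window of Atcayos the first 34 match, and in that of Gcnt1-201 the first 39. RefSeq promoters matched 7 of the 9 genes, leaving Tmprss13 and Kcnj14 named only.

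Dusp18, a phosphatase of chromosome 11 at 3895240 to 3901296, plus strand, read 7.02 and 7.04 in WT. It read 4.79, 4.70 and 4.95 in mdx and 5.06, 5.27 and 5.13 in mdx sln+/-. The groups did not overlap, and the difference was -2.22 in mdx and -1.88 in mdx sln+/-. Angptl7, the secreted protein gene on chromosome 4 at 148495183 to 148500460, minus strand, read 3.17 and 5.08 in WT, 1.65, 2.23 and 2.31 in mdx, and 2.02, 1.64 and 1.76 in mdx sln+/-. Every dystrophic library was below both WT libraries, but WT 2 was far above WT 1, and only 23 genes had a WT range as wide as 1.91. Its difference of -2.06 in mdx and -2.32 in mdx sln+/- was -1.10 and -1.36 without WT 2, and -3.02 and -3.27 without WT 1.

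Fv1, the restriction factor gene on chromosome 4 at 147868979 to 147870358, plus strand, had the smallest differences of the genes picked. It read 2.78 and 3.18 in WT, 1.59, 1.66 and 1.51 in mdx, and 1.34, 1.32 and 1.52 in mdx sln+/-. The dystrophic libraries lay 1.12 or more below WT, and the difference was -1.39 in mdx and -1.58 in mdx sln+/-. Fv1 and Angptl7 lie 0.625 Mb apart on chromosome 4, and Tmprss13 and Dixdc1 5.32 Mb apart on chromosome 9.

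**Figure D2:**
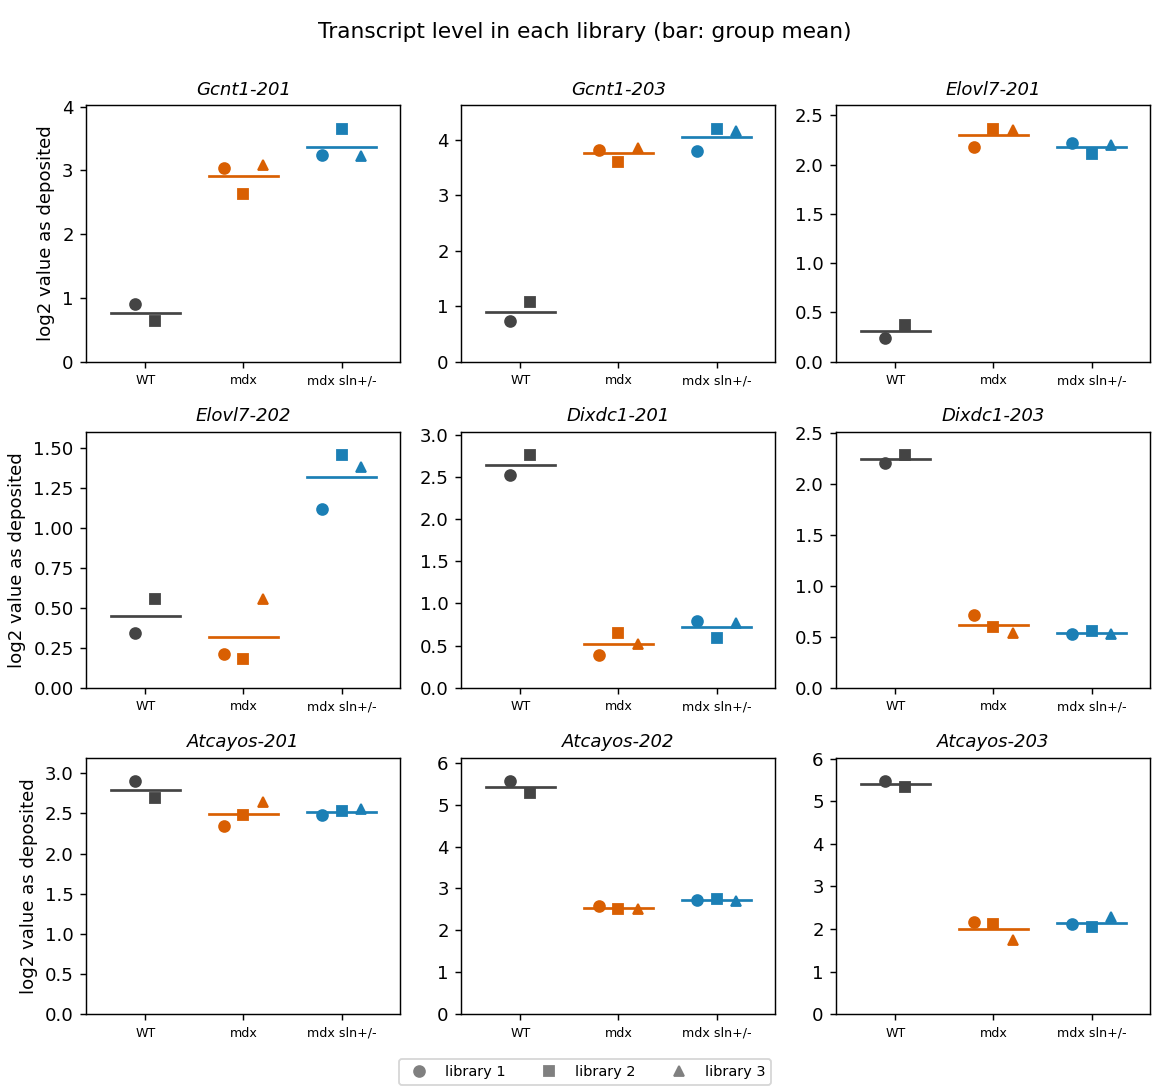
Deposited log2 level of the 9 transcripts of the 4 genes that have several, with circles, squares and triangles for libraries 1, 2 and 3 and bars for group means. Both transcripts of Gcnt1 and of Dixdc1 separate from WT, Atcayos-202 and Atcayos-203 lie far below WT while Atcayos-201 differs by -0.30 in mdx, and Elovl7-202 is highest in mdx sln+/-.

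As a group, 8 of the 9 genes had WT and dystrophic ranges that did not overlap, where 42% of all genes tested did so, and 7 were more than 2-fold apart at the closest libraries, where 0.667% were. The choice of the genes fixed these counts. The description as uniform shifts fits Tmprss13, Gcnt1, Elovl7, Atcayos, Dixdc1, Dusp18 and Fv1 in direction and in this 2-fold gap. It goes against Kcnj14 and, within WT, Angptl7. The SD over the dystrophic libraries was 0.076 for Atcayos and 0.082 for Dixdc1, under the median of 0.107 over all genes tested. It was above that median for Fv1 (0.133), Elovl7 (0.150), Tmprss13 (0.201), Dusp18 (0.213) and Gcnt1 (0.271). Library names come in plain and indexed forms, and WT 1, WT 2, mdx 3 and mdx sln+/- 3 carry the plain form. Within these 4 libraries the differences stayed, for mdx 3 and mdx sln+/- 3 respectively, at 3.64 and 3.50 for Tmprss13, 3.08 and 3.35 for Gcnt1, 1.80 and 1.96 for Elovl7. They were 3.04 and 3.26 for Kcnj14, -2.75 and -2.56 for Atcayos, -2.40 and -2.21 for Dixdc1. They were -2.08 and -1.90 for Dusp18, -1.81 and -2.37 for Angptl7, and -1.47 and -1.46 for Fv1. With 1 library in each dystrophic group these values are a description, and the choice of the genes fixes most of their directions.

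Between the dystrophic groups, the question was whether the heterozygous Sln loss moved these genes further. That contrast took no part in their choice, so it was tested with limma over all genes. None of the 9 was called at an adjusted p of 0.05, and none of all 13783 genes was (0%), while 3 of the 9 and 1186 of all genes had an unadjusted p under 0.05. Tmprss13 was lower in mdx sln+/- than in mdx by a log2 difference of -0.31 (SE 0.10, 95% interval -0.54 to -0.08, adjusted p = 0.578). Gcnt1 differed by 0.37 (SE 0.14, 95% interval 0.06 to 0.69, adjusted p = 0.578) and Dusp18 by 0.34 (SE 0.09, 95% interval 0.13 to 0.54, adjusted p = 0.578). Relative to WT, mdx sln+/- thus lay nearer than mdx for Tmprss13 and Dusp18 and farther for Gcnt1. Ranges of the dystrophic groups did not overlap in 5 of the 9 (Tmprss13, Gcnt1, Dusp18, Atcayos and Elovl7), where 24.8% of all genes did not.

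The other 6 genes gave intervals that hold 0. The interval was -0.04 to 0.49 for Elovl7, -0.04 to 0.31 for Atcayos, -0.14 to 0.33 for Dixdc1 and -0.49 to 0.11 for Fv1. It was far wider for the genes uneven in WT, at -1.31 to 0.79 for Angptl7 and -3.52 to 2.19 for Kcnj14, since the fit shares the spread of all groups. At transcript level, in a fit chosen after the gene values were seen, Elovl7-202 was 1.01 higher in mdx sln+/- (SE 0.15, limma with Benjamini-Hochberg adjustment, adjusted p = 0.403), and none of the 33027 transcripts was called (0%), with 3021 at an unadjusted p under 0.05.

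**Figure D3:**
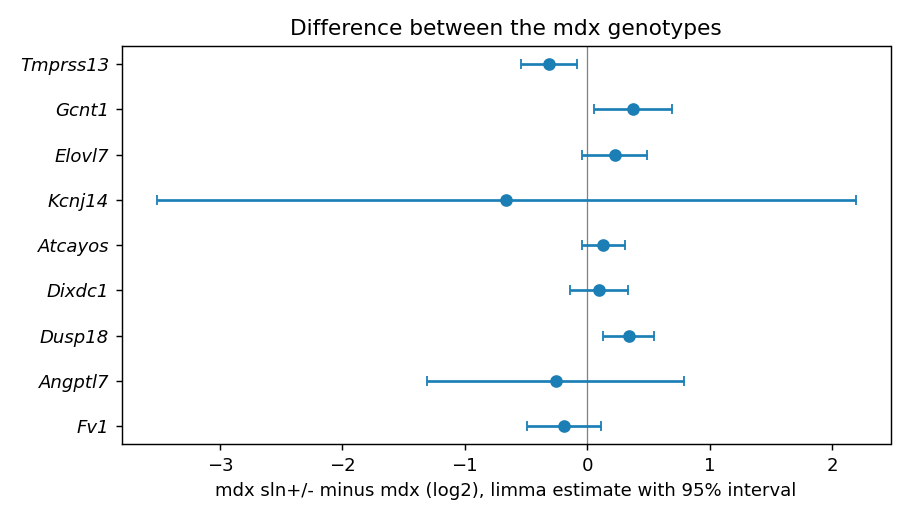
Difference of mdx sln+/- minus mdx in log2(value + 1) for the 9 genes, as limma estimates with 95% intervals (bars). The intervals of Tmprss13, Gcnt1 and Dusp18 leave out 0 before adjustment over all genes, and Kcnj14 has the widest.

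The genomic surroundings of the 9 genes were then measured against WT. Within 1 Mb of them lay 275 other genes tested, of which 55 were called in mdx against WT (20%, 27 higher and 28 lower), where 17.7% of all genes were called. In mdx sln+/- against WT 65 were called (23.6%), where 18.9% of all genes were. The windows differed. In mdx the called share ran from 9.86% of 71 genes around Atcayos to 36.8% of 38 around Tmprss13 (5 higher and 9 lower). In mdx sln+/- it ran from 6.25% of 16 around Dixdc1 to 60% of 5 around Gcnt1, with 34.2% around Tmprss13. Single windows were not tested. A difference of more than 2-fold among the called was held by 7 neighbours in mdx (2.55%, beside 2.55% of all genes) and by 4 in mdx sln+/- (1.45%, beside 2.53% of all genes). Of the 7, 6 lay within 250 kb, where they made up 6.52% of the 92 genes. Among these 6 are Nppb, Nppa and Gm13054, which lie together 115 to 131 kb from Fv1. Gm13054 overlaps Nppa on the other strand. Whether counting used strand is not given, so these may not be separate signals. Single libraries moved these counts. In mdx, 14 neighbours were called without WT 2 (5.09% beside 5.86% of all genes), 35 without mdx 1 (12.7% beside 11.8%), 32 without mdx 2 (11.6% beside 10.6%) and 24 without mdx sln+/- 1 (8.73% beside 9.22%). In mdx sln+/-, 24 were called without WT 2 (8.73% beside 6.87%), 17 without mdx sln+/- 1 (6.18% beside 5.5%), 29 without mdx sln+/- 2 (10.5% beside 9.64%) and 24 without mdx sln+/- 3 (8.73% beside 7.86%). The share over all genes fell with that of the neighbours in each case. Without WT 1 the count past 2-fold was 13 in each comparison. With the name form as a term 6 were called in mdx (2.18% beside 2.61% of all genes) and 13 in mdx sln+/- (4.73% beside 3.65%). Within 250 kb, 26 of the 92 were called in mdx (28.3%) and 23 in mdx sln+/- (25%). The shares near the 9 genes and over all genes were not tested against each other.

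The 7 neighbours past 2-fold in mdx had named roles in several cases. Scn4b, a sodium channel subunit 165 kb from Tmprss13, fell by 1.89 (SE 0.27, adjusted p = 0.00651), and Pts, an enzyme of tetrahydrobiopterin synthesis near Dixdc1, fell by 1.19 (SE 0.10, adjusted p = 0.0015). Dbp, a clock output transcription factor 106 kb from Kcnj14, fell by 1.94 (SE 0.19, adjusted p = 0.00226), and the zinc finger gene Zfp991 near Fv1 fell by 1.51 (SE 0.22, adjusted p = 0.00736). Zfp991 had linear values of 3.62 and 2.22 in WT and 0.15 to 0.69 in the dystrophic libraries. It passed the filter only through WT, which favours a fall, and it is counted among the 7. With the name form as a term Scn4b and Zfp991 were not called (adjusted p = 0.0536 and 0.0568), while Pts and Dbp were. Between Fv1 and Angptl7, the natriuretic peptide genes Nppb and Nppa rose by 1.84 (SE 0.37, adjusted p = 0.0174) and 1.12 (SE 0.26, adjusted p = 0.0279), and Gm13054, which overlaps Nppa on the other strand, rose by 1.07 (SE 0.20, adjusted p = 0.0155). With the name form as a term these 3 were not called either (0.109 for Nppb, 0.139 for Nppa and 0.0923 for Gm13054). They also ended without WT 2, at an adjusted p of 0.105, 0.14 and 0.0783, and that of Nppa also ended without mdx 1 (0.0828), mdx 3 (0.0694) and mdx sln+/- 1 (0.0504). Rps3a3, 385 kb from Elovl7, had an estimate of 3.29 (SE 1.19) and was not called (adjusted p = 0.0974).

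The genes directly beside the 9 were counted too. Of the 18 nearest genes on either side, 4 were called in mdx against WT (22.2%, beside 17.7% of all genes). In mdx sln+/- 3 were called (16.7%, beside 18.9%). None was called past 2-fold in mdx, where 2.55% of all genes were. Their differences in mdx ran from -0.54 to 0.82, and the median absolute difference over all genes was 0.18. Near Tmprss13 Fxyd6, a regulator of the sodium pump, gave 0.82, a call that ended in 7 of 8 fits leaving out a library (without WT 2 adjusted p = 0.206). Near Dusp18 Slc35e4 gave -0.53, lost in 6 of the 8 fits, with the highest adjusted p, 0.124, without WT 1. Beside Kcnj14 Grwd1 gave 0.53 and was lost without WT 2 (0.0637), and Cyth2 gave 0.36 and was lost without WT 1, WT 2, mdx 2 or mdx sln+/- 1. Dlat beside Dixdc1 and Mfn2 beside Fv1 stood at 0.00 in mdx, where they were not called. Mtor, whose gene holds Angptl7 on the other strand with no shared exon bases, read 5.72 and 5.71 in WT, 5.48, 5.33 and 5.40 in mdx and 5.23, 5.33 and 5.21 in mdx sln+/-. It fell by 0.31 in mdx (adjusted p = 0.0305), a call that ended without WT 1, WT 2, mdx 2, mdx 3, mdx sln+/- 1 or mdx sln+/- 3, and by 0.46 in mdx sln+/- (adjusted p = 0.00918, lost without mdx sln+/- 1 at 0.0511).

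**Figure D4:**
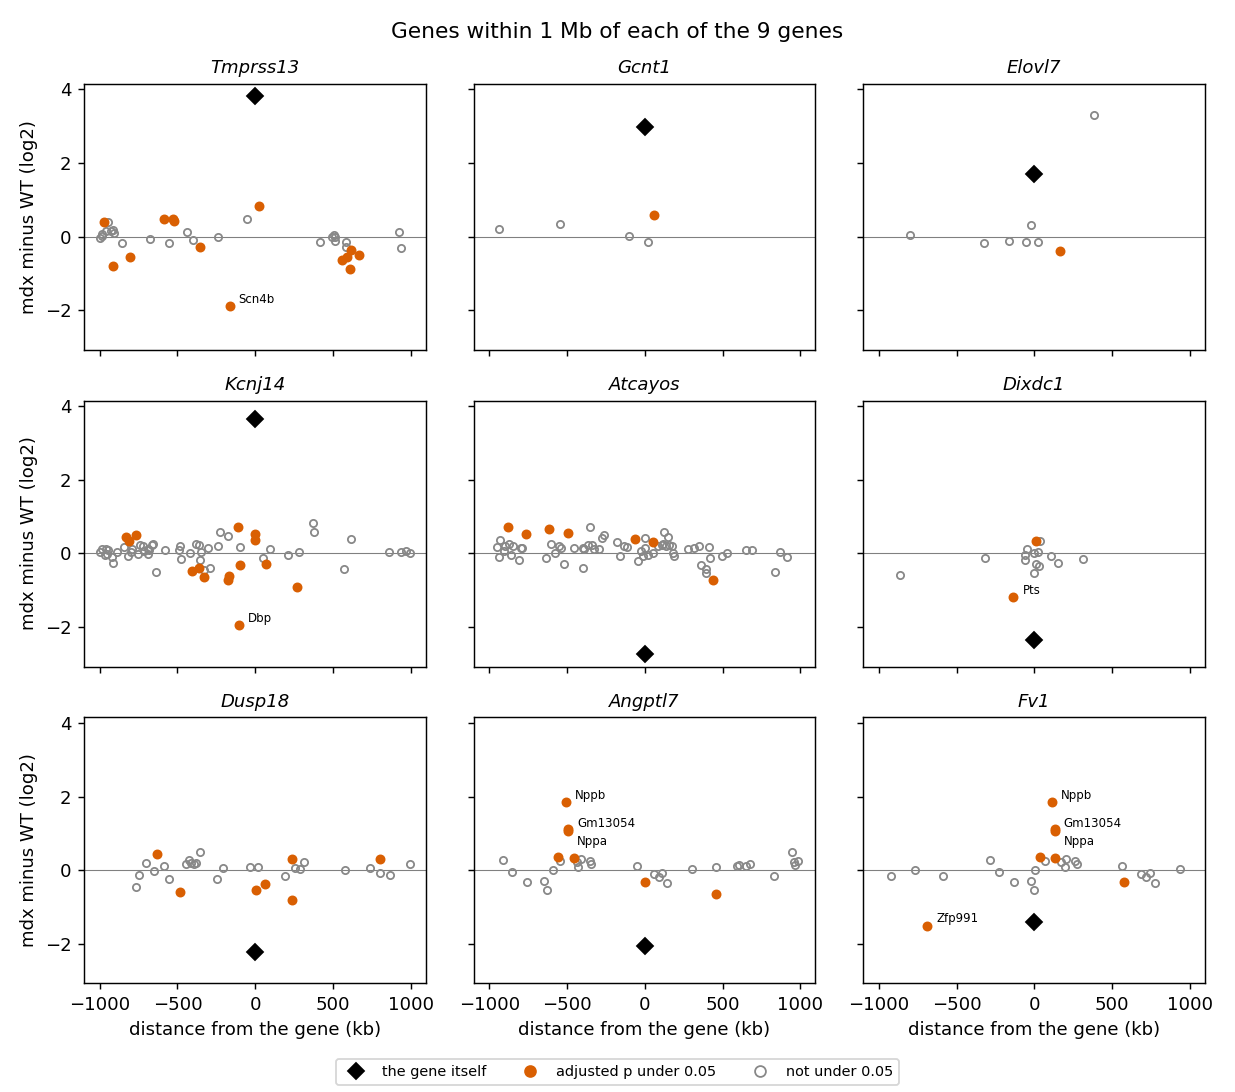
Difference of mdx minus WT in log2(value + 1) for genes within 1 Mb of each of the 9 genes, by distance in kb on the genome; filled points have an adjusted p under 0.05, open points do not, and the diamond is the gene itself. Neighbours shared by Fv1 and Angptl7 appear in both panels, and most neighbours lie near 0, with Scn4b, Dbp, Pts, Zfp991, Nppa, Nppb and Gm13054 labelled.

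Relatives of the 9 genes were compared with WT over all genes by the same fit. Genes of retroviral restriction, the class of Fv1, had the most calls: of 16 tested, 9 rose in mdx and none fell, where 9.56% of all genes rose and 8.15% fell, and 8 rose and none fell in mdx sln+/- (11.3% and 7.65% of all genes). Their median difference was 0.545 beside 0.019 over all genes. In mdx, 3 of 5 macrophage markers and Ighm were called higher beside this list, and their part in it was not tested. Mov10, a helicase of RNA silencing, rose by 1.02 (adjusted p = 0.00452) and Slfn2, of the schlafen family, by 0.98 (adjusted p = 0.00881), both in all 8 fits leaving out a library. Without WT 2 the genes of the list called were 4 in each comparison, and without mdx sln+/- 1 they were 5 in mdx and 2 in mdx sln+/-. Without mdx sln+/- 2 or 3 the count was 4 in mdx sln+/-, without mdx 1 it was 6 in mdx, and without mdx sln+/- 3 it was 6 in mdx. With both libraries of low Y-linked level, WT 2 and mdx sln+/- 3, left out, none was called, and with the name form as a term 1 was called in mdx and none in mdx sln+/-. Fv1 was lower than WT while the called genes of its class were higher.

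Inward rectifier channels, the class of Kcnj14, were listed with Abcc8 and Abcc9, receptor subunits of the ATP-sensitive channel. Among 9 genes of this list tested, 3 were lower and none higher in mdx (median 0.032, the value of Abcc8). In mdx sln+/- 3 were lower and 2 higher. Kcnj12 fell by 0.77 (adjusted p = 0.0059) and Kcnj2 by 0.84 (adjusted p = 0.00673), the main subunits of the cardiac resting current, in all 8 fits leaving out a library. Kcnj11, the pore of the ATP-sensitive channel, fell by 0.91, a call lost without WT 2 (adjusted p = 0.0806), mdx 1 (0.0654) or mdx 3 (0.0507). In the list of mucin-type O-glycan synthesis around Gcnt1, which also holds Selplg, 4 of 22 genes rose and 2 fell in mdx. In mdx sln+/- 3 rose, and the median in mdx was 0.118. St6galnac4, a sialyltransferase, rose by 0.70 (adjusted p = 0.0106) and B4galt5, a galactosyltransferase, by 0.58 (adjusted p = 0.0148), both lost without WT 2 (0.0633 and 0.0802). Selplg, which encodes a selectin ligand of leukocytes, differed by 1.15, a call lost without WT 1 (0.0682) or WT 2 (0.0634). In mdx, 3 of 5 macrophage markers and Ighm were called higher too, and their part in the level of Selplg was not tested.

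The list of fatty acid elongation around Elovl7 also names desaturase genes and Acsl1. Of its genes, 1 of 14 was higher and 1 lower in each group, with a median of -0.072. Hacd4, a dehydratase of the elongation cycle, rose by 0.78 (adjusted p = 0.0109) in all 8 fits leaving out a library. The gene called lower in mdx was the desaturase gene Scd1, which fell by 1.17 (adjusted p = 0.0156), lost without WT 2 (0.0929). Of 15 Wnt pathway genes around Dixdc1, 1 fell in mdx and 3 in mdx sln+/-, with none higher and a median of -0.004. Without WT 2, mdx sln+/- 1, mdx sln+/- 2 or mdx sln+/- 3 none was called in mdx sln+/-. Axin2, a target and inhibitor of the pathway, fell by 0.92 (adjusted p = 0.0227), lost without WT 2 (0.0677), mdx 1 (0.0654) or mdx 2 (0.065). Dvl3, a dishevelled protein, was at -0.25 (adjusted p = 0.0534).

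Dual specificity phosphatases had 3 of 16 higher in mdx, with none lower and a median of 0.062, and 3 higher and 1 lower in mdx sln+/-. Dusp8, a phosphatase of stress kinases, rose by 0.71 (adjusted p = 0.0157), lost without WT 1 (0.0557), WT 2 (0.0801) or mdx 2 (0.057), and Dusp23 was at 0.51 (adjusted p = 0.0292), lost without 5 of the 8 libraries, with the highest adjusted p, 0.136, without WT 2. Dusp18 lay opposite to these relatives. Angiopoietin-like and angiopoietin genes were listed with the receptor genes Tek and Tie1. Among 8 genes of this list tested, 1 rose and 1 fell in each group (median 0.023). Angpt1, a ligand of the endothelial receptor Tek, fell by 0.84 (adjusted p = 0.0104) in all 8 fits leaving out a library. The gene called higher in mdx was the receptor gene Tek, at 0.35 (adjusted p = 0.0364). This call was lost without 5 of the 8 libraries, with the highest adjusted p, 0.171, without WT 2. In NAD synthesis 1 of 7 genes rose in each group (median 0.039), with Naprt at 0.63 (adjusted p = 0.0131), lost without WT 2 (0.0738), and Nmnat3 at -0.31 (adjusted p = 0.0767). Of the proteases and inhibitors around Tmprss13, 2 of 18 listed were tested, and the inhibitor gene Spint2 was at 0.44 (adjusted p = 0.0372), lost without 5 of the 8 libraries, with the highest adjusted p, 0.177, without WT 2. Corin, the protease that activates natriuretic peptides, was at -0.14 (adjusted p = 0.633). Without WT 2, the lists of O-glycan, Wnt, phosphatase, NAD and protease genes held no call in mdx, the rectifier list 2, and the elongation and angiopoietin lists 1 each. Without WT 2 and mdx sln+/- 3 all 9 lists held 1 call in mdx, in the elongation list. In mdx sln+/-, only the restriction list with 4 calls, the rectifier list with 1 and the elongation list with 1 held any without WT 2, and none did without WT 2 and mdx sln+/- 3. Without mdx sln+/- 1 or 2 the O-glycan list held none there and without mdx sln+/- 3 it held 1. With the name form as a term, the calls in mdx were Mov10, Kcnj12 and Kcnj2. No gene of these 9 lists was called between the dystrophic groups.

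**Figure D5:**
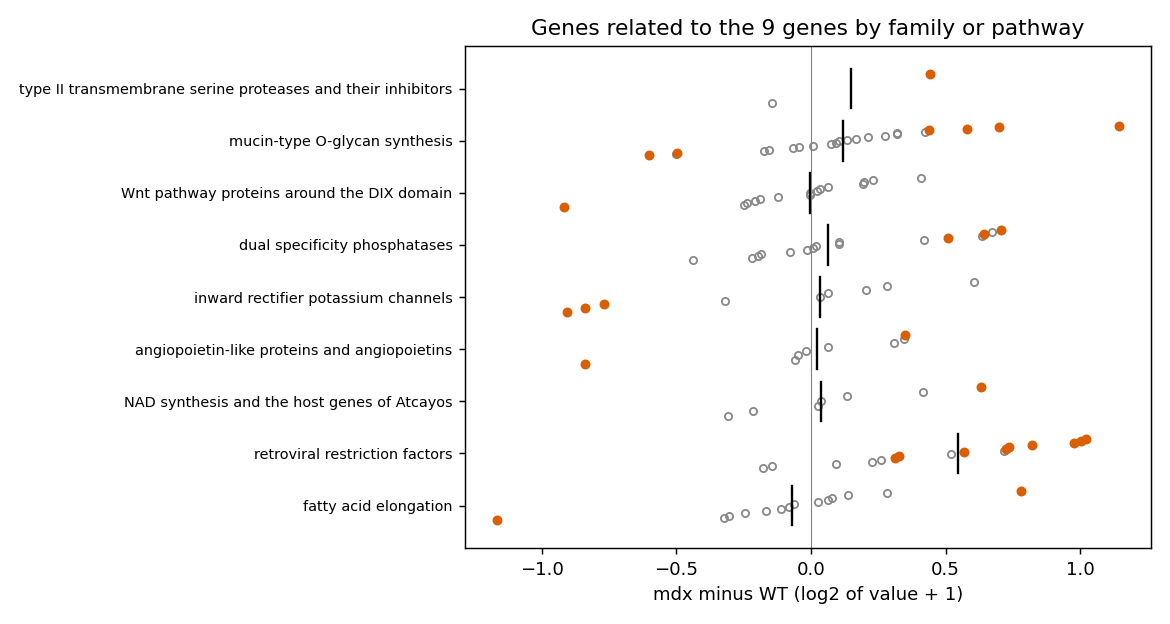
Difference of mdx minus WT in log2(value + 1) for genes related to the 9 genes by family or pathway, 1 row per list and 1 point per gene; filled points have an adjusted p under 0.05 and vertical bars are list medians. The retroviral restriction list has its median at 0.545, and the other 8 medians lie between -0.072 and 0.149.

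The genes most like each of the 9 over the 8 libraries, by Pearson's r of the level, were also listed, as a description over points that share their groups. Predicted genes with Gm symbols, genes of mean level under 1, the 9 genes and genes overlapping them were left out. Tmprss13 was followed most closely by Clmp (r = 0.998) and Hemk1 (0.997), both on chromosome 9, and Dixdc1 by Npat (0.998), on the same chromosome, and AI506816 (0.997). Fv1 was followed by Hdac1 (0.997), which is also on chromosome 4, and Cpt1a (0.994). Gcnt1 lay closest to Ptpmt1 (0.995) and Sdad1 (0.991), Elovl7 to Plekha7 (0.998) and Mgat4b (0.995), and Dusp18 to Wipf3 (0.997) and Armc2 (0.995). Atcayos lay closest to the clock repressor gene Cry2 (0.997) and Mrpl15 (0.995). Angptl7 lay closest to Chrna2 (0.997) and Pgpep1 (0.993), and Kcnj14 to Pkm (0.993) and Sharpin (0.989), genes that share its low WT 2 value. In all, 4 of these 18 genes lie on the chromosome of the gene they resemble.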

How the data were processed

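Left ventricle RNA of 8 libraries was measured. The submitters' processing notes name STAR 2.6.1, mm10, Partek and limma. The authors deposited log2 values for 33027 transcripts, with an r1 and an r2 column per library per the file headers; their meaning is not given, they correlated at 0.981 to 0.987, and they were averaged to 1 replicate. That they are log2(abundance + 1) was inferred from the values (3.07e-05 to 16.2). Counts were not used, so depth and its precision are unknown; linear sums per library were 780262 to 924253. Length scaling and strand are not given.

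Linear values were summed per gene, and log2(value + 1) was fitted with limma 3.58.1 (R 4.3.3) over all 8 libraries, with Benjamini-Hochberg adjustment and a threshold of 0.05. The design was written for counts and its stated fallback for normalized values was used. In every transcript, mdx 2 and mdx sln+/- 2 average to the mean of the other 4 dystrophic libraries (largest difference 5.13e-05, other contrasts SD 0.127 to 0.199), so a term for this contrast was fitted, which leaves 4 residual degrees of freedom. Called means an adjusted p under 0.05. The scripts were tested on simulated data. Positions are from GENCODE M21, with 14568 of 14578 genes matched; promoters are from RefSeq, GRCm38.p6. Python 3.11.15 with pandas 2.3.3, numpy 2.4.6, scipy 1.17.1 and matplotlib 3.10.9 was used.

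Named genes are the 9 genes, the nearest gene on each side, neighbours within 1 Mb that were called and past 2-fold, in each list the 2 genes of lowest adjusted p in mdx against WT, and the 2 genes most like each of the 9. Others were chosen after their values were seen. The 9 genes and the lists were chosen with earlier results of these data known. Alternatives were a pseudocount of 0.25, other filters and scaling, r1 or r2 alone, no contrast term, a replicate block, the name form, other windows and leaving out libraries.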

Additional observations from a re-analysis of the deposited data

How the results depend on the processing

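The 9 genes kept their direction against WT in every alternative that tested them, which their choice largely fixes, and none of them or of all genes was called between the dystrophic groups in any. With a pseudocount of 0.25 the difference from WT in mdx grew to 4.41 for Tmprss13 and 2.39 for Elovl7. Counts against WT, in the order mdx and mdx sln+/-, moved more, and the cause was not tested. Over all genes (2440 and 2607) they were 3798 and 3996 without the removed-contrast term, 360 and 503 with the name form as a term, 242 and 143 without WT 2 and mdx sln+/- 3, and 807 to 2340 and 758 to 3034 leaving out a library. For neighbours within 1 Mb (55 and 65) they were 88 in mdx without the contrast term, 6 and 13 with the name form, 6 and 5 without WT 2 and mdx sln+/- 3, 14 to 53 and 17 to 71 leaving out a library, 26 and 23 within 250 kb, and 129 and 155 within 5 Mb. Neighbours past 2-fold (7 and 4) were 2 in mdx with the name form, 8 in mdx sln+/- with a pseudocount of 0.25, 7 in mdx sln+/- from r2 alone, 2 in mdx sln+/- within 250 kb, 21 and 15 within 5 Mb, and 6 to 13 and 4 to 13 leaving out a library. No label says that a replicate number marks a shared litter, batch or day. The deviations of same-numbered libraries correlated at 0.148 and 0.180 between WT and mdx and at -0.00452 and -0.180 between WT and mdx sln+/-; between mdx and mdx sln+/- the removed contrast fixes the value of -0.996 for number 2 and bears on the others, so pairing there cannot be checked. With a replicate block the counts fell to 1336 and 1333 for all genes and to 27 and 34 for neighbours. Of the neighbouring and overlapping genes named, 10 lost a call under 1 alternative or more (103 values) and none reversed. Each of the 28 calls in the lists in mdx and the 29 in mdx sln+/- ended under 1 alternative or more, such as leaving out both WT 2 and mdx sln+/- 3 or adding the name form. Depth is unknown, so no counting error can be given for low levels such as those of Elovl7 and Dixdc1.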

Other observations

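Beyond the 9 genes, 85 of 13774 genes tested (0.617%) had WT and dystrophic libraries more than 2-fold apart with no overlap, a list picked from the values and therefore described without a test. The list and its shares by chromosome include genes that passed the filter only through the side where they were high. Hsd17b7, an enzyme of cholesterol and steroid synthesis on chromosome 1, read 1.51 and 1.13 in WT, 3.97, 4.08 and 4.21 in mdx and 4.05, 4.23 and 4.38 in mdx sln+/-. Lrrc52, an auxiliary subunit of potassium channels on the same chromosome, read 2.77 and 2.83 in WT, 0.89, 0.73 and 0.66 in mdx and 0.56, 0.65 and 0.66 in mdx sln+/-. Their SD over the 6 dystrophic libraries was 0.146 and 0.113, where the median over all genes was 0.107. Lrrc52 was under a linear value of 1 in every dystrophic library, so it passed the filter only through WT, which favours a fall. Plekha7, a junction protein gene that followed Elovl7, read 0.63 and 1.00 in WT and 2.98 to 3.40 in the dystrophic libraries. Both its WT libraries were under a linear value of 1, so it passed the filter only through the dystrophic libraries.

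By chromosome these 85 made up 1.96% of the genes tested on chromosome 18 (7 of 357), 1.44% on chromosome 17 (9 of 627), 1.3% on chromosome 9 (10 of 767) and 1.07% on chromosome 1 (9 of 842), and 0% on chromosome 15 (0 of 517). Of the 9 on chromosome 17, 7 are genes of the major histocompatibility complex between 34.0 and 34.3 Mb (H2-K1, H2-DMa, H2-DMb1, Psmb9, H2-Ab1, H2-Aa and H2-Eb1), all higher in the dystrophic libraries, with mean differences of 1.57 to 2.95. Within 5 Mb of the 9 genes, 7 of 635 genes were of this kind (1.1%). They were Scn4b and Clmp near Tmprss13, Nxpe4 near Dixdc1, Gm13212 and Gm26880 near Fv1 and Angptl7, Mpeg1 near Gcnt1, and Dbp near Kcnj14. Nxpe4 read 2.07 and 1.82 in WT and 0.16 to 0.27 in the dystrophic libraries, and it passed the filter only through WT.

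Of the 50 genes most like each of the 9, 22% lay on the same chromosome for Kcnj14 (7.46% of all genes considered), 18% for Dixdc1 (5.64%) and 10% for Tmprss13 (5.64%). The share was 8% for Gcnt1 (3.69%) and Atcayos (4.94%) and 6% for Elovl7 (3.89%). It was 6% for Fv1 (6.11%) and Dusp18 (8.22%) and 0% for Angptl7 (6.11%). Predicted genes with Gm symbols, such as Gm13212 and Gm26880 near Fv1 and Angptl7, were not considered here. The 9 genes and genes of mean level under 1 were left out too. These shares were looked at after the values were seen and carry no test.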
